A study of Homo sapiens with 6 samples.

Results

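A set of 10 genes of collagen maturation was examined in SK-Hep1 cells with and without knockdown of *RAB30-DT*, a long noncoding RNA. The genes were chosen by symbol, with earlier results of these data known. They are the prolyl 4-hydroxylase subunits *P4HA1*, *P4HA2*, *P4HA3* and *P4HB*, the lysyl hydroxylases *PLOD1*, *PLOD2* and *PLOD3*, and the lysyl oxidases *LOX*, *LOXL1* and *LOXL2*, which make 10 of the 62700 genes in the tables. RNA-Seq of poly-A RNA covered 6 libraries, 3 of control cells (titled shControl, genotype label WT) and 3 of knockdown cells (titled shRAB30-DT). The study's methods describe lentiviral pLKO.1 vectors and puromycin selection to stable lines, and the labels do not say which of its knockdown vectors these libraries carry or whether replicates were separate cultures. The p-values therefore measure the spread between these libraries, which may be technical. SK-Hep1 is an established line from a liver tumour that the study calls endothelial-derived. Levels are in TPM, an abundance that accounts for the length of a gene and adds up to the same total in each library, and depth is unknown. Values listed for a group follow the order of its replicates 1 to 3. The target *RAB30-DT* had 18.16, 11.51 and 13.91 TPM in the controls, with 11.94, 10.85 and 6.50 TPM in the libraries labelled knockdown, so that the groups overlapped (log2 fold change −0.55, adjusted p = 0.355 from limma), and knockdown stands here for that label.

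Collagen chains are hydroxylated in the endoplasmic reticulum before they leave the cell. Prolyl 4-hydroxylases, tetramers of a catalytic alpha subunit (*P4HA1* to *P4HA3*) and the beta subunit protein disulfide isomerase (*P4HB*), make the hydroxyproline that keeps the triple helix stable at body temperature. Lysyl hydroxylases (*PLOD1* to *PLOD3*) make the hydroxylysine that carries sugars and strengthens crosslinks, and the copper enzymes of the lysyl oxidase family then oxidise lysines and hydroxylysines outside the cell so that fibres crosslink. Both kinds of hydroxylase need oxygen, iron, 2-oxoglutarate and ascorbate. *P4HA1*, *P4HA2*, *PLOD2* and *LOX* are among the genes known to be induced by hypoxia. This trait was not checked here for the other members, so it does not set these 4 apart from them.

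The 250 bases before the RefSeq start site of these 4 genes are printed because they were also the members with the highest fold changes. They come from GRCh38.p14, all on the minus strand, and are written 5′ to 3′ at chr10:73096867-73097116 (*P4HA1*), chr5:132227092-132227341 (*P4HA2*), chr3:146161185-146161434 (*PLOD2*) and chr5:122078260-122078509 (*LOX*, the most upstream of 3 start sites). The *P4HA2* and *PLOD2* windows lie inside the longer gene spans that GENCODE gives. Capitals mark the core of the hypoxia response element, ACGTG or GCGTG, on either strand.
P4HA1: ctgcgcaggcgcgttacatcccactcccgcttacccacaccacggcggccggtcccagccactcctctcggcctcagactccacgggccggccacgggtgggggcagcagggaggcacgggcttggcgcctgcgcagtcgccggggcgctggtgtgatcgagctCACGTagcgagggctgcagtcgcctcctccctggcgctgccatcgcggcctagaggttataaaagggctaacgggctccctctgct
P4HA2: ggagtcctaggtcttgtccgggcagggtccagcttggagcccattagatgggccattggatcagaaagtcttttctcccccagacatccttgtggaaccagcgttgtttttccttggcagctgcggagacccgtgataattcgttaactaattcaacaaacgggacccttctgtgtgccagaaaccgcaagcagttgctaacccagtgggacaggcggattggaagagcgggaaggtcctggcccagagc
PLOD2: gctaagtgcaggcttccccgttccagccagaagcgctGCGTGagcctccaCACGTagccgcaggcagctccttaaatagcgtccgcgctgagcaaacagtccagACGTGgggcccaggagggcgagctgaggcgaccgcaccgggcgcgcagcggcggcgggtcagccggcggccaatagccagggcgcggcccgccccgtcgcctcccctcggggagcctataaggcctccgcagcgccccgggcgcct
LOX: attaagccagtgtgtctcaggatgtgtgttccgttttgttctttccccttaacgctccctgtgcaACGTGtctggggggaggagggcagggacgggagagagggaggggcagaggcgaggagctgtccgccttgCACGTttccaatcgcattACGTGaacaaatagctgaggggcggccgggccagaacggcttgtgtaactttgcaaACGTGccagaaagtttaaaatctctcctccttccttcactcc
The core occurred 4 times in the *LOX* window, 3 times in that of *PLOD2* and 1 time in that of *P4HA1*, 86 bases before the start. The *P4HA2* window held 0. The windows at the other *LOX* start sites held 2 each. Of the other members searched, *PLOD1* had 2, *P4HB* 1, and *PLOD3* and *LOXL1* 0. No window was searched for *P4HA3* and *LOXL2*, so their lack of a count says nothing about their promoters. Among all 35116 RefSeq windows of this length, 43.2% held at least 1 core, so that a match is a description of the letters and not of a bound site.

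In the comparison of knockdown with control cells, *P4HA1* and *P4HA2* rose, and none of the 9 members that could be tested fell. *LOX* and *PLOD2* had the next highest fold changes and did not pass the test, while the means of *P4HB*, *PLOD1*, *PLOD3* and *LOXL1* differed by less than the SD of the controls. *LOXL2* had a lower mean in knockdown cells and did not pass the test either. The test was limma on log2(TPM + 1) with Benjamini-Hochberg adjustment over 14020 genes whose mean level reached 1 TPM, and a gene was called at an adjusted p under 0.05. Of the 9 tested members, 2 were called higher and 0 lower, where 1.04% of all tested genes were called in either direction and 0.371% were called higher. An unadjusted p under 0.05 was found for 4 of the 9 and for 16.8% of all tested genes. Over the 9 members the median of the log2 fold changes was 0.27, and over all tested genes −0.04. The knockdown libraries all exceeded the controls in 3 of the 9, *P4HA1*, *P4HA2* and *LOX*, as they did in 9.89% of all tested genes. Groups did not overlap in either direction in 23.3% of genes. In single-gene exact two-sided permutation tests 3 libraries against 3 cannot go below p = 0.1, the value that these 3 members reached. In bulk RNA, more expressing cells and more RNA per cell cannot be told apart.

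**Figure D1:**
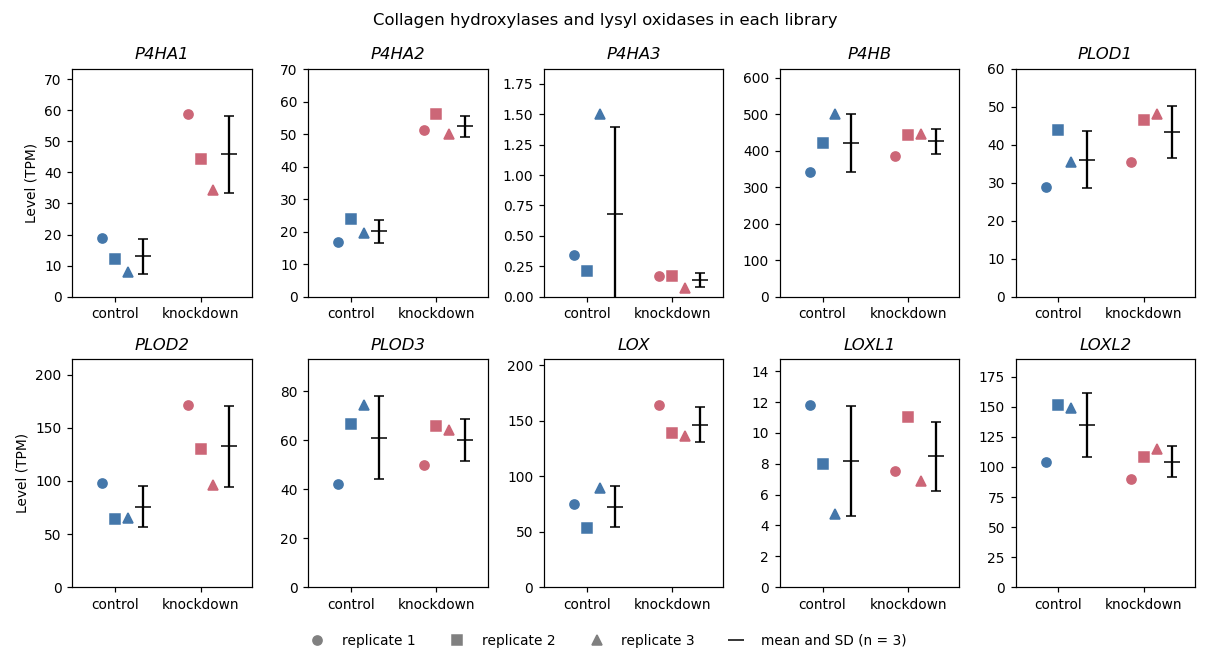
TPM of the 10 members in each library, with control libraries in blue, knockdown libraries in red, a marker for each replicate number, and the mean and SD (n = 3) beside each group; each panel has its own axis from 0, which hides the lower end of the SD of *P4HA3* in control cells. Knockdown libraries lie above all control libraries for *P4HA1*, *P4HA2* and *LOX* and below them for the scarce *P4HA3*, and the groups overlap for *P4HB*, *PLOD1*, *PLOD2*, *PLOD3*, *LOXL1* and *LOXL2*.

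*P4HA1* (ENSG00000122884.13, minus strand of chromosome 10 of hg38, 73007217 to 73096974) encodes the alpha subunit that most cell types use. The controls had 18.88, 12.12 and 7.86 TPM, against 58.69, 44.37 and 34.26 TPM after knockdown. The lowest knockdown library was above the highest control library, and replicate 1 was the highest of each group. The mean rose from 13.0 ± 5.56 TPM in control to 45.8 ± 12.3 TPM in knockdown cells (SD, n = 3 each), or by 1.79 on the log2 scale (standard error, SE, 0.32, limma adjusted p = 0.0494), which is 3.46-fold with a 95% confidence interval from 2.07 to 5.78 (folds with an interval are those of TPM + 1). This call lay at the threshold. It was kept without control replicate 1 (adjusted p = 0.0147 from limma) and lost without any other single library, with limma's adjusted p at 0.179 and 0.0633 without control replicates 2 and 3 and at 0.174, 0.194 and 0.142 without knockdown replicates 1, 2 and 3.

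*P4HA2* (ENSG00000072682.20, minus strand of chromosome 5, 132190147 to 132295315) encodes the second alpha subunit, which forms its own tetramer with the same beta subunit. It was measured at 16.78, 23.91 and 19.59 TPM in the controls, whereas the knockdown cells had 51.29, 56.13 and 50.00 TPM. The knockdown libraries lay close together and far above the controls, with a gap of more than the whole range within either group. The mean rose from 20.1 ± 3.59 to 52.5 ± 3.23 TPM (SD, n = 3 each). The log2 fold change was 1.35 (SE 0.18, limma adjusted p = 0.0252), or 2.56-fold with a 95% confidence interval from 1.90 to 3.43. Without control replicate 2 or any one of knockdown replicates 1, 2 and 3 the call was lost (adjusted p = 0.0751, 0.104, 0.153 and 0.129 from limma), although the log2 fold change stayed between 1.24 and 1.48 over the fits that left out a library. Both genes also lost their call where no filter on low values was applied, with adjusted p of 0.144 for *P4HA1* and 0.0688 for *P4HA2* from limma over 27381 genes.

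*P4HA3* (ENSG00000149380.12, minus strand of chromosome 11, 74235801 to 74311640), the third alpha subunit, was barely detected. Values of 0.34, 0.21 and 1.50 TPM in the controls stood against 0.17, 0.17 and 0.07 TPM in the knockdown cells. All knockdown values lay below all control values, but the control mean of 0.683 TPM rested mostly on replicate 3, and the gene did not reach the filter of a mean of 1 TPM. Fitted without the filter, its log2 fold change was −0.49 (SE 0.28, limma adjusted p = 0.568). It shares 166 exonic bases, 4.16% of its exon length, with *PPME1* on the opposite strand, which had a mean of 255 TPM in control and 138 TPM in knockdown cells. As no source used here states that reads were counted by strand, reads of these genes may not be told apart.

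*P4HB* (ENSG00000185624.16, minus strand of chromosome 17, 81843159 to 81860856) encodes the beta subunit, which also works as a free disulfide isomerase and is made in excess of the alpha subunits. It was the most abundant member, with 341.54, 421.65 and 500.29 TPM in the controls, and 386.92, 443.66 and 446.57 TPM after knockdown. The knockdown values fell inside the control range. The log2 fold change was 0.03 (SE 0.17, limma adjusted p = 0.947), with a 95% confidence interval from 0.784-fold to 1.33-fold, and its sign changed with the library left out. Summed over the 3 genes, the alpha subunits went from 33.7 ± 4.14 to 98.4 ± 13.1 TPM (SD, n = 3 each). Relative to *P4HB* they amounted to 10.5%, 8.59% and 5.79% in the controls, but to 28.5%, 22.7% and 18.9% in the knockdown cells. Thus alpha subunit RNA stayed below that of *P4HB* in all 6 libraries, at a ratio that did not overlap between the groups. No background was computed for this ratio.

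*PLOD2* (ENSG00000152952.14, minus strand of chromosome 3, 146035139 to 146163725) encodes the lysyl hydroxylase that acts on the telopeptides, the ends of the chain where crosslinks start. Expression was 97.74, 64.46 and 64.71 TPM in the controls, against 171.87, 129.89 and 95.95 TPM after knockdown. The groups overlapped, since knockdown replicate 3 was just below control replicate 1. From 75.6 ± 19.1 TPM in control to 133 ± 38.0 TPM in knockdown cells (SD, n = 3 each), the log2 fold change was 0.79 (SE 0.26, limma adjusted p = 0.182), or 1.73-fold with a 95% confidence interval from 1.15 to 2.60. Limma's arrayWeights weighs libraries by their spread (3.00 and 4.39 for replicate 2 of control and knockdown, at most 0.948 for any other). Under it the log2 fold change was 0.93 and passed the test (adjusted p = 0.00722), in a fit that called 3218 of 14020 genes. With 1 library left out *PLOD2* did not pass, at adjusted p from 0.0585 to 0.467 from limma.

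*PLOD1* (ENSG00000083444.17, plus strand of chromosome 1, 11934205 to 11975538), which hydroxylates lysines of the helix, had 28.94, 43.85 and 35.52 TPM in the controls. In the knockdown cells it had 35.44, 46.62 and 48.08 TPM. The groups overlapped, and the log2 fold change of 0.27 (SE 0.21, limma adjusted p = 0.564) had a 95% confidence interval from 0.856-fold to 1.69-fold. *PLOD3* (ENSG00000106397.12, minus strand of chromosome 7, 101205977 to 101218420), which also transfers sugars to hydroxylysine, was at 42.11, 66.50 and 74.49 TPM in the controls, with 49.99, 65.86 and 64.29 TPM after knockdown. Replicate 1 was the lowest of each group for this gene, the reverse of *P4HA1* and *PLOD2*. Its log2 fold change was 0.01 (SE 0.24, limma adjusted p = 0.993), with a 95% confidence interval from 0.684-fold to 1.47-fold. *PLOD3* shares 102 exonic bases with *ZNHIT1* on the opposite strand, which had 141 and 119 TPM on average in control and knockdown cells.

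*LOX* (ENSG00000113083.15, minus strand of chromosome 5, 122063195 to 122078413) encodes the founding lysyl oxidase, secreted as a proenzyme and active on fibrillar collagen and elastin. The controls held 75.16, 53.19 and 89.43 TPM, and the knockdown cells 164.37, 139.05 and 135.67 TPM. The ranges of the groups were well apart. From 72.6 ± 18.3 TPM in control to 146 ± 15.7 TPM in knockdown cells (SD, n = 3 each), the log2 fold change was 1.03 (SE 0.21), or 2.04-fold with a 95% confidence interval from 1.45 to 2.86. The adjusted p of 0.0712 from limma missed the threshold. *LOX* passed with arrayWeights (adjusted p = 0.00113 from limma), where 3218 of all tested genes were called, and with a replicate block (adjusted p = 0.0313), where 861 were. It also passed without control replicate 1 (adjusted p = 0.0488 from limma) or control replicate 3 (adjusted p = 0.0469). Without control replicate 2 it did not pass (adjusted p = 0.198 from limma). Nor did it without knockdown replicates 1, 2 and 3 (adjusted p = 0.24, 0.27 and 0.212) or without a filter (adjusted p = 0.158).

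*LOXL1* (ENSG00000129038.16, plus strand of chromosome 15, 73925989 to 73952137), known for its part in elastic fibres, was low, at 11.84, 7.96 and 4.72 TPM in the controls against 7.52, 11.03 and 6.89 TPM after knockdown. The knockdown values lay inside the control range. The log2 fold change was 0.10 (SE 0.32, limma adjusted p = 0.906), with a wide 95% confidence interval from 0.639-fold to 1.80-fold. Its antisense neighbour *LOXL1-AS1* shares 335 exonic bases, 9.21% of the exon length of *LOXL1*, and had higher means, 16.2 TPM in control and 11.4 TPM in knockdown cells, so that the values of *LOXL1* are uncertain.

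*LOXL2* (ENSG00000134013.16, minus strand of chromosome 8, 23296897 to 23425328) encodes the lysyl oxidase that crosslinks the type IV collagen of basement membranes. The controls had 103.87, 151.90 and 148.83 TPM, the knockdown cells 89.73, 108.56 and 115.17 TPM. Only control replicate 1 lay within the range of the knockdown libraries. The mean was 135 ± 26.9 TPM in control and 104 ± 13.2 TPM in knockdown cells (SD, n = 3 each), with a log2 fold change of −0.35 (SE 0.20, limma adjusted p = 0.408) and a 95% confidence interval from 0.573-fold to 1.07-fold. This lower value passed the test only with arrayWeights (log2 fold change −0.45, adjusted p = 0.0314 from limma), a fit that called 3218 of 14020 genes.

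**Figure D2:**
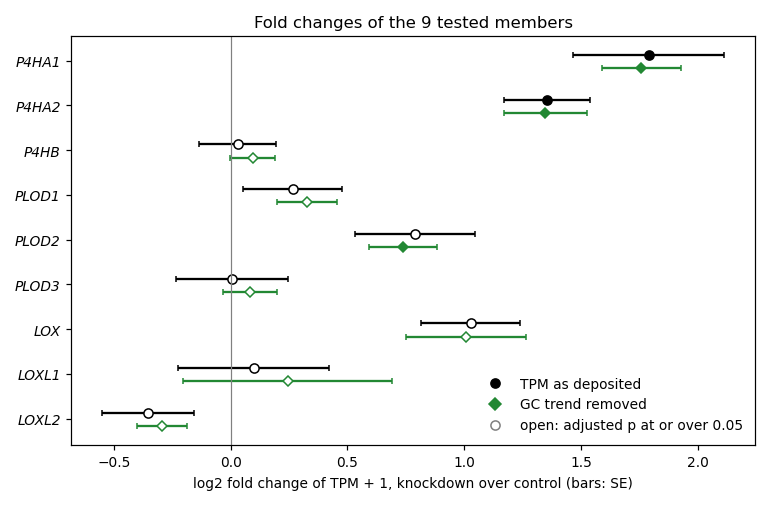
Log2 fold change of TPM + 1 in knockdown over control cells for the 9 tested members, with standard errors from limma, for TPM as deposited (circles) and with each library's GC trend removed (diamonds); filled symbols have an adjusted p under 0.05. *P4HA1* (1.79) and *P4HA2* (1.35) are filled in both, *PLOD2* only with the trend removed (0.74), and *LOX* (1.03) in neither.

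TPM are scaled by length, so that levels can be set beside each other within a library. The GC trends described below remain in them, so orders and shares of genes that differ in GC content are approximate. In control cells the order of the mean levels was *P4HB*, *LOXL2*, *PLOD2*, *LOX*, *PLOD3*, *PLOD1*, *P4HA2*, *P4HA1*, *LOXL1* and *P4HA3*. The ranges overlapped between neighbours from *PLOD2* to *PLOD1* and from *P4HA2* to *LOXL1*. In knockdown cells *LOX* followed *P4HB*, and *LOXL2* came after *PLOD2*. The ranges of *LOX* and *PLOD2* overlapped, as did those of *PLOD2* and *LOXL2*, while those of *LOX* and *LOXL2* did not. *P4HA2* and *P4HA1* stood above *PLOD1*, with ranges overlapping between neighbours from *PLOD3* to *PLOD1*. By level, *P4HA1* lay above 45.6% of tested genes in control cells and above 78.3% in knockdown cells, and *P4HA2* above 56.2% and 80.9%.

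Among the lysyl oxidases, the shares of *LOX* and *LOXL2* did not overlap between the groups. *LOX* made up 39.4%, 25.0% and 36.8% of the summed TPM of *LOX*, *LOXL1* and *LOXL2* in the controls, compared with 62.8%, 53.8% and 52.6% after knockdown. *LOXL2* held 54.4%, 71.3% and 61.3% in the controls and 34.3%, 42.0% and 44.7% after knockdown. Accordingly *LOXL2* exceeded *LOX* in all control libraries and *LOX* exceeded *LOXL2* in all knockdown libraries, the ratio of *LOX* to *LOXL2* being 0.350 to 0.724 and 1.18 to 1.83, respectively. The sum of the 3 oxidases was 216 ± 26.2 TPM in control and 259 ± 2.03 TPM in knockdown cells (SD, n = 3 each). *PLOD2* made up 43.9 ± 12.1% of the lysyl hydroxylases in control and 55.5 ± 10.5% in knockdown cells (SD, n = 3 each), with overlapping groups, and their sum went from 173 ± 3.45 to 236 ± 25.1 TPM. Within the alpha subunits, the ratio of *P4HA1* to *P4HA2* was 0.401 to 1.13 in the controls, with 0.685 to 1.14 after knockdown. *LOXL1* held at most 6.20% of the oxidase sum, so the shares of *LOX* and *LOXL2* and their ratio restate 1 observation. These shares and ratios are given without a test. How often such values separate by group in other gene families was not computed.

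**Figure D3:**
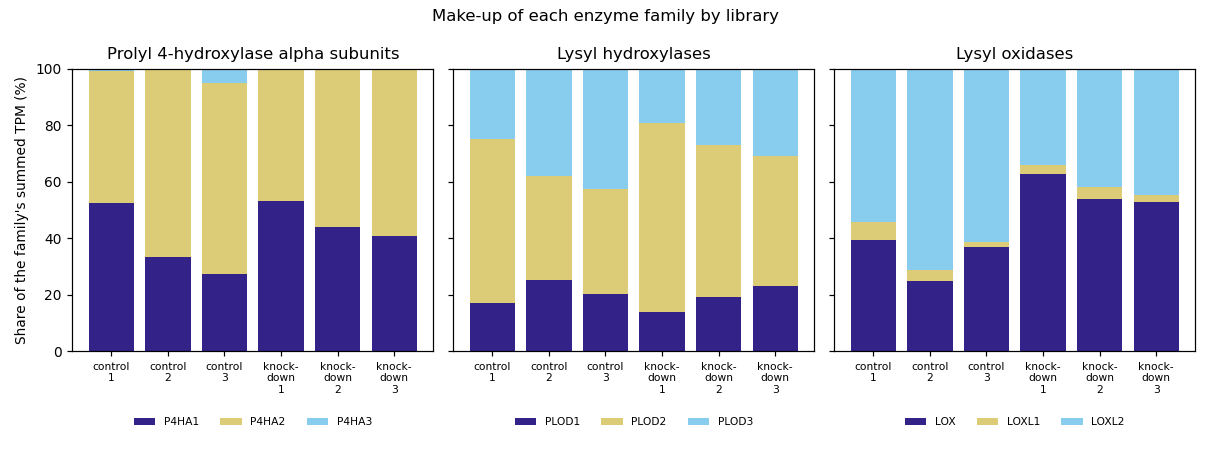
Share of each member in the summed TPM of its family (percent) in each of the 6 libraries, as stacked bars for the prolyl 4-hydroxylase alpha subunits, the lysyl hydroxylases and the lysyl oxidases. The share of *LOX* is 25.0% to 39.4% in control and 52.6% to 62.8% in knockdown libraries, whereas the shares of *P4HA1* and *PLOD2* overlap between the groups.

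The libraries differed in how levels went with GC content, and so did the members. Across genes, Spearman's rho between exon GC content and the deviation of a gene from its mean over the 6 libraries was −0.606, 0.294 and 0.489 in the controls and −0.524, 0.0162 and 0.335 in the knockdown libraries. These are correlations across genes, which are not independent replicates. The 4 members with the highest fold changes had the lowest exon GC content, 36.0% in *PLOD2*, 40.2% in *P4HA1*, 40.8% in *LOX* and 45.7% in *P4HA2*, against 49.4% to 64.9% in the other 6. Over all tested genes, rho between log2 fold change and GC content was −0.13. With the trend of each library removed, the log2 fold change was 1.76 for *P4HA1* (adjusted p = 0.0047 from limma), 1.35 for *P4HA2* (adjusted p = 0.0111), 0.74 for *PLOD2* (adjusted p = 0.0283) and 1.01 for *LOX* (adjusted p = 0.0531). Of the 9 tested members 3 were called in this fit, all higher. Of all 14020 tested genes 8.5% were called in either direction, and 533 were called higher. On this scale *PLOD2* no longer overlapped, with log2 levels of 6.22, 6.07 and 6.49 in the controls against 7.17, 7.01 and 6.81 after knockdown. *PLOD1* and *LOXL2* also separated, higher and lower respectively, without passing the test (adjusted p = 0.149 and 0.126 from limma). The share of all tested genes whose groups separate on this scale was not computed, so these separations have no background to be read against.

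**Figure D4:**
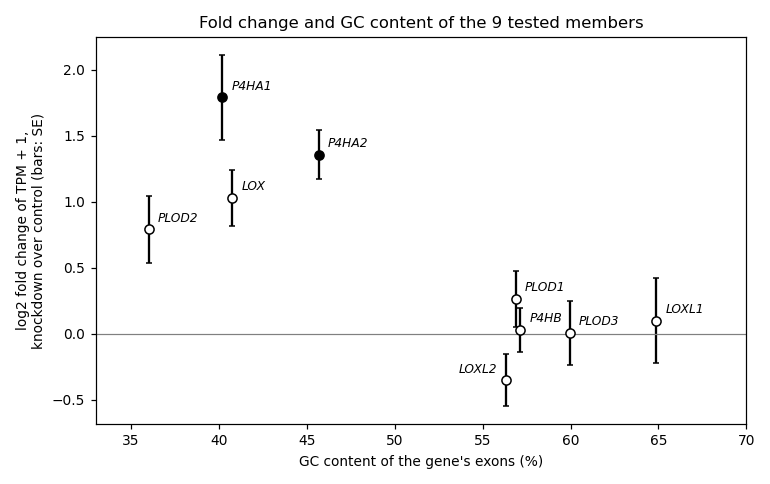
Log2 fold change of TPM + 1 in knockdown over control cells, with standard errors from limma, against the GC content of the exons (percent) for the 9 tested members; filled points have an adjusted p under 0.05. The 4 members between 36.0% and 45.7% GC lie at 0.79 or higher, and the 5 at 56.3% or more lie between −0.35 and 0.27.

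The other genes of the collagen pathway are given as counts, beside the 1.04% called and the 16.8% at an unadjusted p under 0.05 among all tested genes, and lists this short can be at 0 calls at that share. Of 26 other genes of procollagen folding, modification, processing and export, 18 were tested, 0 were called in either direction and 3 had an unadjusted p under 0.05. The largest fold changes were those of *CRTAP*, a subunit of the prolyl 3-hydroxylase complex, with 98.9 ± 18.5 TPM in control and 175 ± 7.95 TPM in knockdown cells (SD, n = 3 each; log2 fold change 0.83, adjusted p = 0.0739 from limma), and of *P3H2*, a prolyl 3-hydroxylase, with −0.70 (adjusted p = 0.149 from limma). *LOXL3* and *LOXL4*, the remaining lysyl oxidases, named after their values were seen, had means of at most 0.987 TPM in either group and were below the filter. Of 20 genes of collagen chains and elastin, the substrates, 12 were tested and 0 called, with 3 at an unadjusted p under 0.05, against the same shares. *COL18A1*, of basement membranes, had the largest change with 36.2 ± 12.0 TPM in control and 16.4 ± 3.99 TPM in knockdown cells (SD, n = 3 each), −1.08 on the log2 scale (adjusted p = 0.123 from limma), followed by *COL4A2* with −0.72 (adjusted p = 0.265 from limma). The chains of type I and III collagen, named after their values were seen, were scarce, with means of 1.24 TPM in control and 1.45 TPM in knockdown cells for *COL1A1* and at most 0.13 TPM for *COL1A2* and *COL3A1*.

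Among 11 disulfide isomerases and oxidases besides *P4HB*, 10 were tested and 0 called, with 1 at an unadjusted p under 0.05, against 1.04% and 16.8% of all tested genes. The largest values were 0.42 for *ERO1A*, an oxidase that recharges *P4HB* (adjusted p = 0.294 from limma), and 0.30 for *ERP44* (adjusted p = 0.598), a chaperone of secreted proteins. Of 6 transporters and chaperones for ascorbate and copper, 5 were tested and 0 called, with 2 at an unadjusted p under 0.05, against the same shares. *SLC31A2* and *SLC31A1*, both copper transporters, had log2 fold changes of 0.72 and 0.64 (adjusted p = 0.233 and 0.153 from limma).

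Of 22 hypoxia-inducible genes set beside the members, 20 were tested, of which 7 were called higher and 0 lower, beside the 0.371% called higher among all tested genes. These were *PFKFB4*, *PDK1* and *PGK1* of glucose metabolism, with log2 fold changes of 2.46, 1.75 and 1.36, *BNIP3* of mitophagy, with 2.04, its relative *BNIP3L*, whose mean rose from 68.9 to 170.4 TPM, the mTORC1 inhibitor *DDIT4*, with 1.45, and the histone demethylase *KDM3A*, with 1.24. Their adjusted p from limma ran from 0.00444 to 0.0433. The median over the 20 genes was 0.74, against −0.04 over all tested genes, and in 13 of the 20 the knockdown libraries all exceeded the controls, as in 9.89% of all tested genes. *CA9*, which hypoxia induces strongly in many cells, was listed at 0 in all 6 libraries, and *SLC2A1*, *LDHA* and *ADM* had log2 fold changes of 0.23, 0.18 and −0.56 that did not pass the test. These 4 genes were chosen after their values were seen. The list itself was written with earlier results of these data known, so its counts describe the list and are not independent evidence. The count of 7 fell to 1 without control replicate 2, knockdown replicate 1 or knockdown replicate 2 and to 2 without knockdown replicate 3.

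**Figure D5:**
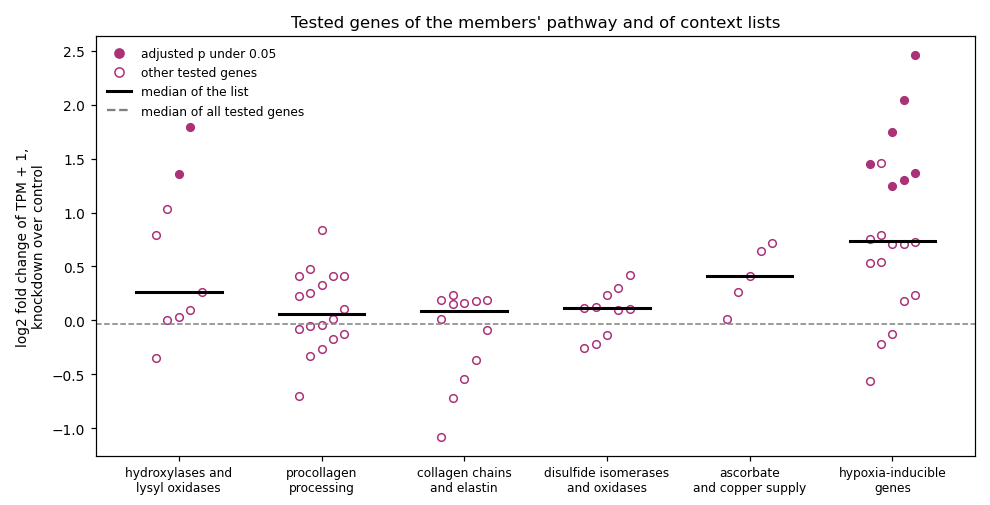
Log2 fold change of TPM + 1 in knockdown over control cells for each tested gene of the 9 members and of 5 lists, 18 of procollagen processing, 12 of collagen chains and elastin, 10 of disulfide isomerases and oxidases, 5 of ascorbate and copper supply and 20 hypoxia-inducible genes; filled points have an adjusted p under 0.05, black bars are medians and the dashed line is the median of all tested genes. Filled points occur only among the members (2) and the hypoxia-inducible genes (7).

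Over all genes 52 were called higher and 94 lower, a split that became 60 and 69 with median-of-ratios scaling and 78 and 80 with quantile normalization. Of 8 endothelial markers 0 reached a mean of 1 TPM over the 6 libraries, and *PECAM1*, *CDH5* and *KDR* were at or near 0. The sums over the 8 markers were 0.4 to 3.21 TPM in control and 0.59 to 1.46 TPM in knockdown libraries. Among hepatocyte markers 1 of 8, *SERPINA1*, did so, 5 including *ALB* were at 0 in all libraries, and the sums were 19.7 to 25.1 and 28.7 to 38.1 TPM. Mesenchymal markers reached it in 6 of 8, with sums of 3920 to 4183 TPM in control and 4504 to 4942 TPM in knockdown libraries, mostly *VIM*. They did not move one way. *ACTA2*, smooth muscle actin, rose from 9.10 ± 0.992 to 40.5 ± 2.27 TPM (SD, n = 3 each; adjusted p = 0.00444 from limma). *PDGFRB* had 4.18 ± 1.72 and 1.13 ± 0.11 TPM and *THY1* 131 ± 25.2 and 89.2 ± 11.8 TPM in control and knockdown cells. Both were lower without overlap and not past the test (adjusted p = 0.12 and 0.226 from limma). *ACTA2* and *VIM* were higher without overlap, *VIM* not past the test (adjusted p = 0.225 from limma). Groups did not overlap in 23.3% of all tested genes. Single markers were named after their values were seen. The part of these shifts in the values of *P4HA1*, *P4HA2* and *LOX* was not tested.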

How the data were processed

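RNA–Seq of poly-A RNA was measured in 6 SK-Hep1 libraries, 3 per group, grouped and numbered by their titles. The study's methods name fastp, STAR, samtools and RSEM, whereas the submitters' processing notes name fastp, HISAT2 2.0.5 and hg38. The authors deposited gene-level TPM without counts, so depth and counting error are unknown. All 62700 versioned identifiers matched GENCODE Release 44, used for symbols, positions and exon GC content. TPM were tested as log2(TPM + 1) in limma 3.58.1 (R 4.3.3; lmFit, eBayes with trend, two-sided, no block), with Benjamini–Hochberg adjustment over 14020 genes whose mean reached 1 TPM. The fit was tested on simulated data first. Single genes were also compared by exact permutation tests, and promoter windows from RefSeq were searched in Python 3.11.15. Named genes were all members, *RAB30-DT*, and from each pathway list every called gene (at most 8) or, where none was called, the 2 with the largest change. Marker lists were described by summed levels; single markers and other genes named in the text were chosen after their values were seen. The members and lists were chosen with earlier results of these data known. Alternatives covered pseudocounts (0.1, 5), filters (none, 5 TPM), median-of-ratios and quantile scaling, removal of mitochondrially encoded genes, removal of GC trends (loess, span 0.3), eBayes without trend or robust, arrayWeights, a replicate block, stricter thresholds, and each library left out.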

Additional observations from a re-analysis of the deposited data

How the results depend on the processing

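Directions of *P4HA1*, *P4HA2*, *PLOD1*, *PLOD2* and *LOX* (higher) and *LOXL2* (lower) held under all alternatives run. Against 2 members called, 0 were called without a filter or at strict thresholds (adjusted p below 0.001 from limma and a change beyond 0.6 on the log2 scale), 1 without mitochondrially encoded genes, 1 by eBayes without trend, 5 with arrayWeights (4 higher, 1 lower), and from 0 to 3 with 1 library left out (0 without control replicate 2 or any knockdown replicate). Against 146 genes in all, 13 were called without a filter, 1191 with the GC trend removed, 3218 with arrayWeights, 0 at the strict thresholds (2350 had an unadjusted p under 0.05 in the fit as reported, 4 of them members), and between 12 (control replicate 2 left out) and 489 (control replicate 1 left out) in the fits without 1 library. The 7 hypoxia-inducible genes became 1 without a filter, 12 with the GC trend removed, 15 with arrayWeights, 0 at the strict thresholds and from 1 to 8 with 1 library left out. Procollagen processing, at 0, had 1 with quantile normalization, 2 with the GC trend removed, 3 with arrayWeights and from 0 to 1 with 1 library left out; collagen chains and elastin, at 0, had 1, 3 and from 0 to 1 in the last 3 of these. Ascorbate and copper supply had 1 with the GC trend removed and 2 with arrayWeights, and disulfide isomerases 1 with arrayWeights. The sign of *PLOD3* turned with arrayWeights (−0.025), and with 1 library left out *P4HB* ran from −0.11 to 0.16, *PLOD3* from −0.24 to 0.17 and *LOXL1* from −0.20 to 0.38. What caused these shifts was not tested.

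The groups share replicate numbers, but no source used here states a pairing, and the fit as reported assumed none. The correlation of same-numbered libraries in their deviation from the group mean was 0.410, 0.0359 and 0.279 for numbers 1, 2 and 3. GC trends had the same order in both groups, lowest in number 1 and highest in number 3. Whether same-numbered libraries shared a batch was not tested. With a replicate block 861 genes were called, among them 4 members, *P4HA1*, *P4HA2*, *PLOD2* and *LOX*, 11 hypoxia-inducible genes, 1 of procollagen processing and 1 of collagen chains and elastin. With a replicate block and the GC trend removed together these counts were 1028, 3 (*PLOD2* at an adjusted p of 0.0503 from limma), 11, 1 and 2. Depth is unknown, so precision rests on 3 libraries per group.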
